A study of Mus musculus with 9 samples.

Results

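The genes described here are 36 genes of mitosis and chromosome segregation, measured in mouse ovaries that differed in Taf4b. Taf4b encodes a subunit of TFIID that is enriched in gonads; TFIID recognizes core promoters and recruits RNA polymerase II. The genes were taken by name, older and newer symbols included, and each was followed by its probe set with the highest mean over all arrays. All 36 were found among 22231 named genes, on 38 of the 25100 probe sets that carried a gene symbol, out of 28266 probe sets in all. Ovaries came from 9 mice aged 3 weeks: 3 labelled TAF4b knockout, 3 labelled TAF4b heterozygote and 3 labelled wild type, with 1 Affymetrix GeneChip Mouse Gene 1.0 ST array per mouse. The Taf4b allele, the part of the gene it removes and the strain are not stated in the labels or the design text. Values are RMA intensities, that is, background-corrected and normalized probe set signals on a linear scale, and differences are given as log2 differences. Values of 3 arrays are always listed in the order of replicates 1, 2 and 3.

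Cells enter mitosis when cyclin B and the kinase Cdk1 become active, and chromosomes are then condensed, attached through their kinetochores to the spindle and held together by cohesin. The spindle checkpoint delays anaphase until every kinetochore is attached. The anaphase-promoting complex then tags securin and cyclin B for degradation, separase cuts cohesin, and the central spindle directs the division of the cell. Most of these transcripts accumulate in the G2 phase and in mitosis, and they are widely read as a sign of dividing cells. In the juvenile ovary granulosa cells of growing follicles divide rapidly, while oocytes stay arrested in meiotic prophase and store transcripts of many of the same genes.

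Taf4b, the targeted gene, read 332, 626 and 403 in the arrays labelled knockout, 456, 595 and 574 in the heterozygotes and 494, 635 and 723 in wild type. Knockouts 1 and 3 had the lowest Taf4b signals of the 9 arrays, but knockout 2 stood at 101% of the wild-type mean, so its Taf4b signal goes against its label. For labelled knockout against wild type its log2 difference was -0.48 (SE 0.23, adjusted p = 0.514, limma), with an exact two-sided permutation p of 0.2, where 3 against 3 arrays cannot go below 0.1. The sources used here do not say whether the probe set lies inside the deleted part. Results below are therefore given for all 3 arrays labelled knockout and, where it matters, without knockout 2. Median intensities of the 9 arrays lay between 123.7 and 126.89, and precision is limited by the number of arrays. Defining genes of the labelled tissue were measured on all arrays: the granulosa cell gene Inha lay between 8064 and 10176 in the labelled knockouts, 9648 and 10485 in heterozygotes and 9716 and 9885 in wild type. The oocyte gene Zp3 lay between 2944 and 4943 in the labelled knockouts, 2485 and 3208 in heterozygotes and 3173 and 4469 in wild type.

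The first comparison asked whether the mitosis genes differ between ovaries labelled knockout and wild-type ovaries. In the labelled knockouts 35 of the 36 genes lay below wild type, with a median log2 difference of -0.20, a fold of 0.871. The differences ranged from -0.53 for Cdca5, which protects sister chromatid cohesion, to 0.03 for Ndc80, a kinetochore protein that grips microtubules. Over all probe sets tested the median was -0.004, and 51.7% lay below wild type. No member passed an adjusted p of 0.05 (limma, Benjamini-Hochberg over 25100 probe sets), against 19 probe sets in all, or 0.0757%. The smallest adjusted p among the members was 0.103, for Cdca5. At an unadjusted p under 0.05 there were 21 members, all lower in the labelled knockouts, where 5.77% of all probe sets were lower, 4.89% higher and 10.7% either. The 3 labelled knockout arrays lay entirely below the 3 wild-type arrays for 17 members and entirely above for 0, against 7.77% and 6.51% of all probe sets. In the authors' deposited table, 15 members had p under 0.05, all with a wild type over knockout ratio above 1, where 3.96% of all probe sets did so. Because whole ovaries were profiled, fewer dividing cells and less RNA per cell cannot be told apart.

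These counts depended on single arrays while the direction did not. Without knockout 2, all 36 members lay below wild type, the median was -0.28, 26 had an unadjusted p under 0.05 and 32 lay entirely below, against 12.8% (either direction) and 14.8% of all probe sets in the same arrays. The members with an unadjusted p under 0.05 numbered 10 without wild type 2, against 7.18% of all probe sets in either direction, and 11 without knockout 1, against 7.95%. They numbered 12 without knockout 3, against 9.28%, and 13 without wild type 3, against 8.49%. Over all 9 arrays left out in turn, between 34 and 36 members lay below wild type and the median stayed between -0.28 and -0.16. No member was called in any of them.

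**Figure D1:**
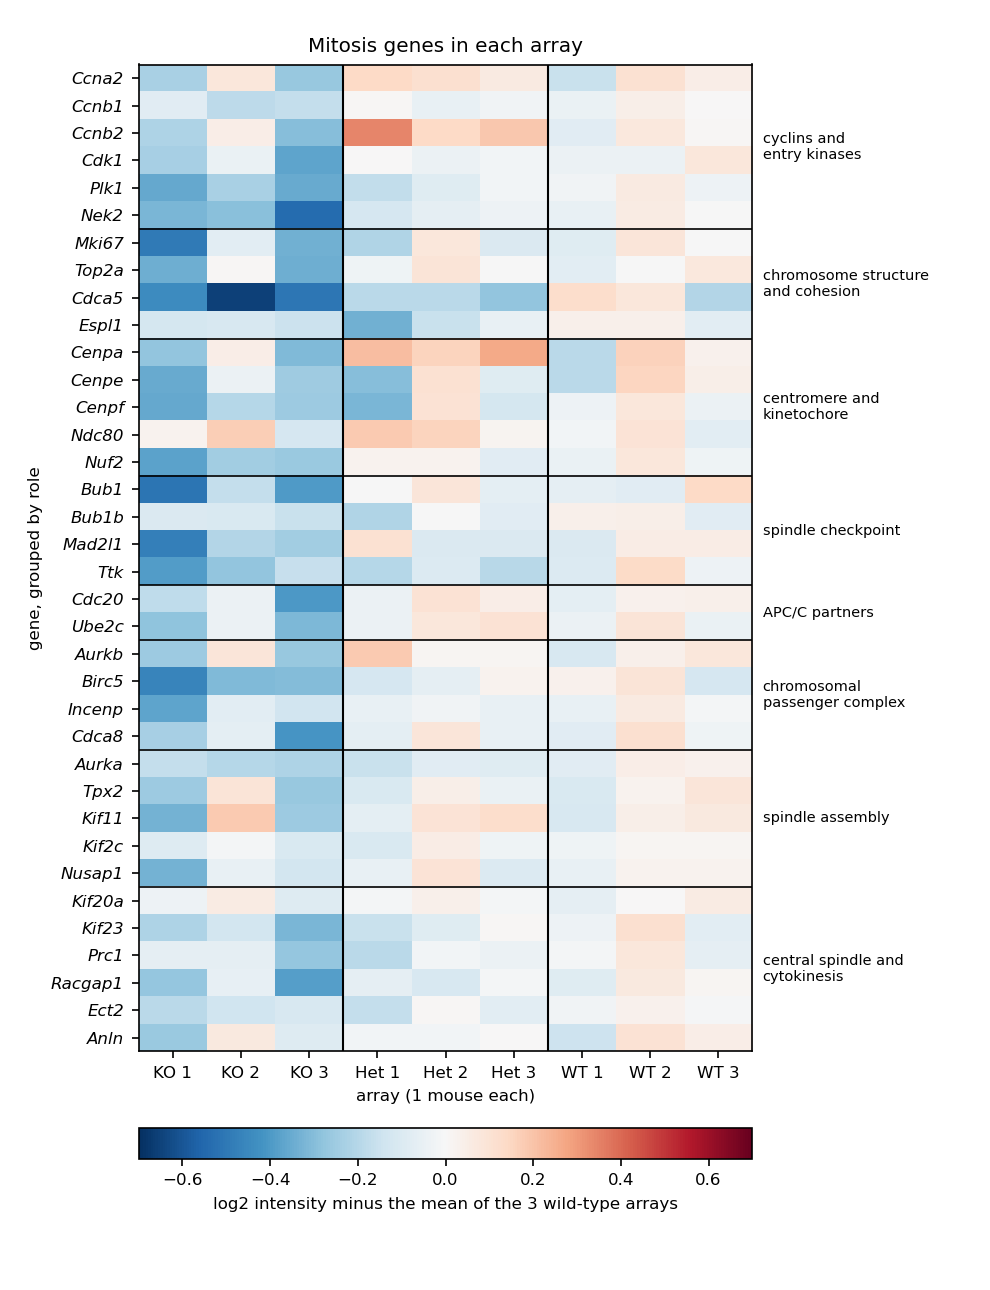
Each row is 1 of the 36 genes, grouped by role, and each column is 1 array (KO labelled knockout, Het heterozygote, WT wild type, 3 mice each); colour gives the log2 intensity minus the mean of the 3 wild-type arrays, blue for lower and red for higher. KO 1 and KO 3 are blue in nearly every row, KO 2 is mixed, and the Het columns lie near 0 with Ccnb2 and Cenpa higher.

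The arrays labelled knockout did not form a uniform group. Knockout 1 lay below all wild-type arrays for 33 members and knockout 3 for 35, where 28.6% and 26.5% of all probe sets did so. Knockout 2 lay below all wild-type arrays for 18 members, against 29.1% of all probe sets, and within their range for 13. It lay above all of them for 5, namely Aurkb, Kif11, Kif20a, Ndc80 and Tpx2, against 24.3%. Knockout 2 stood above both other labelled knockouts for 28 of the 36 members, against 31.7% of all probe sets. The lowest of the 9 values was in knockout 3 for 17 members, in knockout 1 for 15, and in knockout 2 and heterozygote 1 for 2 each. The highest was in wild type 2 for 18. The matching shares of all probe sets are not given here. The median SD between replicate mice was 0.147 on the log2 scale in the labelled knockouts, against 0.077 in heterozygotes and 0.075 in wild type. Over all probe sets these values were 0.088, 0.093 and 0.077. The wider spread of the members among labelled knockouts reached 0.276 for Kif11, the motor that pushes spindle poles apart.

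The promoters of the members were examined for motifs already known from genes of this kind, so the shares are a description and not a test. Mitotic genes of mammals are known to carry CCAAT boxes, bound by NF-Y, and the cell cycle genes homology region TTTGAA, bound by the MuvB core of the DREAM complex. RefSeq windows reaching 250 bases before to 50 after the start (GRCm38.p6) were matched for 31 of the 36 members. On either strand CCAAT was present in 23 of the 31, or 74.2%, against 42.3% of 17492 protein-coding genes. TTTGAA was present in 23, or 74.2%, against 18.5%, and 19 held both, or 61.3%, against 7.4%. In 11 members TTTGAA occurred across the start or in the 50 bases after it and not wholly before it, 35.5% against 1.6% of protein-coding genes. Both motifs lay before the start in 10 members. The 200 bases before the start are shown for 4 of these 10, those with the smallest p for labelled knockout against wild type. This choice was made after the values were seen, because none of the 12 members described in most detail below held both motifs before the start. The sequences read 5′ to 3′ on the strand of the gene, with the motifs on either strand in capitals, so that CCAAT on the opposite strand appears as ATTGG and TTTGAA as TTCAAA. Cdk1 is shown at chr10:69352913-69353112 on the minus strand, Mki67 at chr7:135716380-135716579 on the minus strand, Ect2 at chr3:27153879-27154078 on the minus strand and Ube2c at chr2:164769729-164769928 on the plus strand.
Cdk1: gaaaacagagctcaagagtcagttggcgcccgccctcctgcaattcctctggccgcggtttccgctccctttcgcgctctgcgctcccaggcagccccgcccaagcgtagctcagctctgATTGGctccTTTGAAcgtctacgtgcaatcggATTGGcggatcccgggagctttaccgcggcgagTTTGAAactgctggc
Mki67: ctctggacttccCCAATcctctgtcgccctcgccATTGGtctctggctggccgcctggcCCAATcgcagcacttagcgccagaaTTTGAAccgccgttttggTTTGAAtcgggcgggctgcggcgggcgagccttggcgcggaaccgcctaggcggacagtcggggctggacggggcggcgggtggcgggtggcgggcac
Ect2: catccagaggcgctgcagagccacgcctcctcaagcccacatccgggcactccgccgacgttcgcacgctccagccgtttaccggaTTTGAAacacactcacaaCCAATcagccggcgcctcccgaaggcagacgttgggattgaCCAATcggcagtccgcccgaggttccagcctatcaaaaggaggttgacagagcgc
Ube2c: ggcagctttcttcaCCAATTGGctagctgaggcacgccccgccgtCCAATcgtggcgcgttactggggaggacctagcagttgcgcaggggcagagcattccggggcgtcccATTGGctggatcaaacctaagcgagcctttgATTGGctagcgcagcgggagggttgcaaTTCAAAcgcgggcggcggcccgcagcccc
In the Cdk1 window TTTGAA stands 71 to 66 and again 15 to 10 bases before the start, next to CCAAT matches at 80 to 76 and 48 to 44. In the Ube2c window a CCAAT and an opposite-strand match overlap in 1 run, and the single TTTGAA match, on the opposite strand, lies 29 to 24 bases before the start. A match is a description of the letters and not a binding site shown in these ovaries. The 4 genes stood at log2 differences of -0.22 (Cdk1), -0.30 (Mki67), -0.15 (Ect2) and -0.21 (Ube2c) between labelled knockout and wild type. Their adjusted p was 0.385, 0.392, 0.398 and 0.409 (limma).

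Among the 6 cyclins and kinases of mitotic entry, all 6 lay below wild type in the labelled knockouts, with a median of -0.19. Nek2, a kinase that separates the centrosomes, read 461, 470 and 396 in the labelled knockouts, 529, 550 and 561 in heterozygotes and 555, 597 and 573 in wild type. All 3 labelled knockouts lay below every other array, at -0.38 from wild type (SE 0.07, adjusted p = 0.123, limma). Plk1, the polo kinase that acts at centrosomes, kinetochores and the midbody, read 911, 999 and 914 in the labelled knockouts, 1036, 1100 and 1152 in heterozygotes and 1148, 1219 and 1138 in wild type. Here too the labelled knockouts were the 3 lowest arrays, at -0.31 (SE 0.06, adjusted p = 0.128, limma), and knockout 2 was the highest of them. Ccnb1, the cyclin B1 that activates Cdk1, read 2232, 2079 and 2102 in the labelled knockouts, 2379, 2280 and 2318 in heterozygotes and 2289, 2432 and 2367 in wild type, without overlap between labelled knockouts and the rest. Its difference was -0.14 (SE 0.05, adjusted p = 0.369, limma). The gene has 3 probe sets, which gave -0.14, -0.16 and -0.15. They may share signal with near-identical copies of the gene, so the Ccnb1 values are uncertain. Cdk1 itself read 859, 978 and 782 in the labelled knockouts, 1012, 983 and 996 in heterozygotes and 983, 983 and 1068 in wild type. Ccna2, the S and G2 cyclin, stood at -0.14 and overlapped, as did Ccnb2, the second B-type cyclin, at -0.16. Without knockout 2 they stood at -0.25 and -0.26.

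Chromosome structure and cohesion held the member with the largest difference. Cdca5, also called sororin, read 695, 599 and 663 in the labelled knockouts, 825, 827 and 777 in heterozygotes and 1027, 995 and 817 in wild type. The labelled knockouts did not overlap with either other genotype, knockout 2 was the lowest array of the series, and wild type 3 lay inside the range of the heterozygotes. The mean intensity was 652 ± 48.6 in the labelled knockouts, 810 ± 28.5 in heterozygotes and 946 ± 113 in wild type (SD, n = 3), and the difference from wild type was -0.53 (SE 0.09, adjusted p = 0.103, limma). The authors' deposited table gave a ratio of 1.45 of wild type over knockout with p = 0.0145. Mki67, the Ki-67 protein that coats mitotic chromosomes, read 798, 1070 and 890 in the labelled knockouts, 972, 1187 and 1047 in heterozygotes and 1061, 1194 and 1124 in wild type, and knockout 2 lay inside the wild-type range. Top2a, the topoisomerase that untangles sister chromatids, read 1410, 1796 and 1412 in the labelled knockouts, 1751, 1904 and 1785 in heterozygotes and 1697, 1786 and 1881 in wild type, again with knockout 2 among the others. The Top2a difference was -0.22, or -0.34 without knockout 2. Espl1, separase, read 377, 380 and 370 in the labelled knockouts, 326, 369 and 397 in heterozygotes and 422, 422 and 390 in wild type. It was the member whose labelled knockouts lay above the heterozygotes on average, by 0.05.

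At the centromere and kinetochore 4 of 5 members lay below wild type, with a median of -0.22. Nuf2, the partner of Ndc80 in the microtubule-binding complex, read 647, 710 and 702 in the labelled knockouts, 854, 855 and 795 in heterozygotes and 813, 887 and 821 in wild type. The labelled knockouts lay below all 6 other arrays, at -0.29 from wild type (SE 0.06, adjusted p = 0.146, limma) and -0.28 from heterozygotes (SE 0.06, adjusted p = 0.149). Ndc80 itself read 250, 277 and 226 in the labelled knockouts, 279, 273 and 249 in heterozygotes and 242, 262 and 233 in wild type, with all genotypes overlapping, and stood at -0.05 without knockout 2. The 2 genes encode parts of the same complex, and their log2 differences of -0.29 and 0.03 are set side by side without a test of their difference. Ndc80 also had the lowest wild-type mean intensity among the members, 246 ± 14.8, and Ccnb1 the highest, 2363 ± 71.4 (SD, n = 3), though signals of different probe sets do not rank transcripts. Cenpf, a large kinetochore protein of G2 and mitosis, stood at -0.27 without overlap (adjusted p = 0.383, limma). Cenpe, the kinetochore motor, at -0.22, and Cenpa, the histone H3 variant of centromeres, at -0.18, overlapped with wild type, and Cenpa stood at -0.29 without knockout 2.

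All 4 spindle checkpoint genes lay below wild type in all 3 labelled knockouts, with a median of -0.29. Bub1, a checkpoint kinase at kinetochores, read 714, 907 and 774 in the labelled knockouts, 1017, 1083 and 974 in heterozygotes and 977, 964 and 1125 in wild type. Knockout 2 was the nearest of the 3 to wild type, and the difference was -0.36 (SE 0.10, adjusted p = 0.250, limma), or -0.46 without knockout 2. Mad2l1, which binds and inhibits Cdc20, read 1280, 1548 and 1508 in the labelled knockouts, 1916, 1662 and 1659 in heterozygotes and 1660, 1848 and 1846 in wild type. Its difference was -0.31 (SE 0.09, adjusted p = 0.283, limma), and heterozygote 1 was the highest array. Ttk, the Mps1 kinase that starts the checkpoint signal, read 349, 377 and 409 in the labelled knockouts, 398, 428 and 399 in heterozygotes and 428, 501 and 445 in wild type. Its labelled knockouts lay below wild type, at -0.28 (SE 0.08, adjusted p = 0.271, limma), but overlapped with heterozygotes. Bub1b, the BubR1 component of the inhibitory complex, read 1823, 1820 and 1755 in the labelled knockouts, 1691, 1956 and 1857 in heterozygotes and 2006, 2017 and 1857 in wild type, a difference of -0.12.

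The checkpoint's target Cdc20, the activator of the anaphase-promoting complex, and Ube2c, the ubiquitin-conjugating enzyme that works with it, both stood at -0.21. Cdc20 read 409, 449 and 349 in the labelled knockouts, 448, 496 and 476 in heterozygotes and 441, 471 and 474 in wild type, so that knockout 2 lay among the other genotypes. Ube2c read 355, 420 and 347 in the labelled knockouts, 420, 456 and 464 in heterozygotes and 420, 459 and 418 in wild type, with the same array inside their range.

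The chromosomal passenger complex corrects faulty kinetochore attachments and later acts in cytokinesis, and its 4 members stood at a median of -0.22. Birc5, survivin, which brings the complex to chromosomes, read 235, 261 and 262 in the labelled knockouts, 298, 310 and 329 in heterozygotes and 330, 344 and 298 in wild type. The labelled knockouts were the 3 lowest arrays, at -0.36 (SE 0.07, adjusted p = 0.139, limma). The catalytic subunit Aurkb read 750, 948 and 744 in the labelled knockouts, 1016, 902 and 902 in heterozygotes and 827, 916 and 945 in wild type. Its knockout 2 exceeded every wild-type array, and the difference was -0.15 with overlap, or -0.26 without knockout 2. The scaffold Incenp stood at -0.19 without overlap, and Cdca8, borealin, at -0.24 with overlap.

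The 5 genes of spindle assembly had a median of -0.14, or -0.23 without knockout 2. Aurka, the centrosomal Aurora kinase, read 821, 803 and 794 in the labelled knockouts, 825, 872 and 869 in heterozygotes and 873, 950 and 941 in wild type. The genotypes were fully ordered without overlap between any pair, at -0.19 for labelled knockout against wild type (SE 0.05, adjusted p = 0.251, limma). Kif11 read 527, 751 and 555 in the labelled knockouts, 632, 709 and 723 in heterozygotes and 613, 683 and 695 in wild type. Knockout 2 was the highest and the other labelled knockouts the lowest arrays of the series, and the difference was -0.14 with all arrays and -0.29 without knockout 2. Tpx2, the activator of Aurka on spindle microtubules, stood at -0.14 and at -0.26 without knockout 2. The microtubule-bundling protein gene Nusap1 stood at -0.17 and the microtubule depolymerase gene Kif2c at -0.07, both with overlap.

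The 6 genes of the central spindle and cytokinesis also had a median of -0.14. Kif23, a motor subunit of centralspindlin, read 1227, 1303 and 1143 in the labelled knockouts, 1282, 1343 and 1435 in heterozygotes and 1389, 1539 and 1357 in wild type, without overlap between labelled knockouts and wild type. Its difference was -0.22 (SE 0.07, adjusted p = 0.340, limma). Racgap1, the other centralspindlin subunit, read 1159, 1340 and 1068 in the labelled knockouts, 1338, 1295 and 1386 in heterozygotes and 1319, 1464 and 1412 in wild type. Knockout 2 overlapped with wild type, and the difference was -0.24 (SE 0.09, adjusted p = 0.367, limma). Ect2, the exchange factor that activates RhoA at the division plane, read 941, 973 and 993 in the labelled knockouts, 958, 1079 and 1019 in heterozygotes and 1057, 1095 and 1069 in wild type, and did not overlap with wild type. Prc1, which bundles antiparallel microtubules, stood at -0.13, the contractile ring scaffold gene Anln at -0.09 and the motor gene Kif20a at -0.02, all with overlap. Without knockout 2, Anln stood at -0.18 and Kif20a at -0.06.

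**Figure D2:**
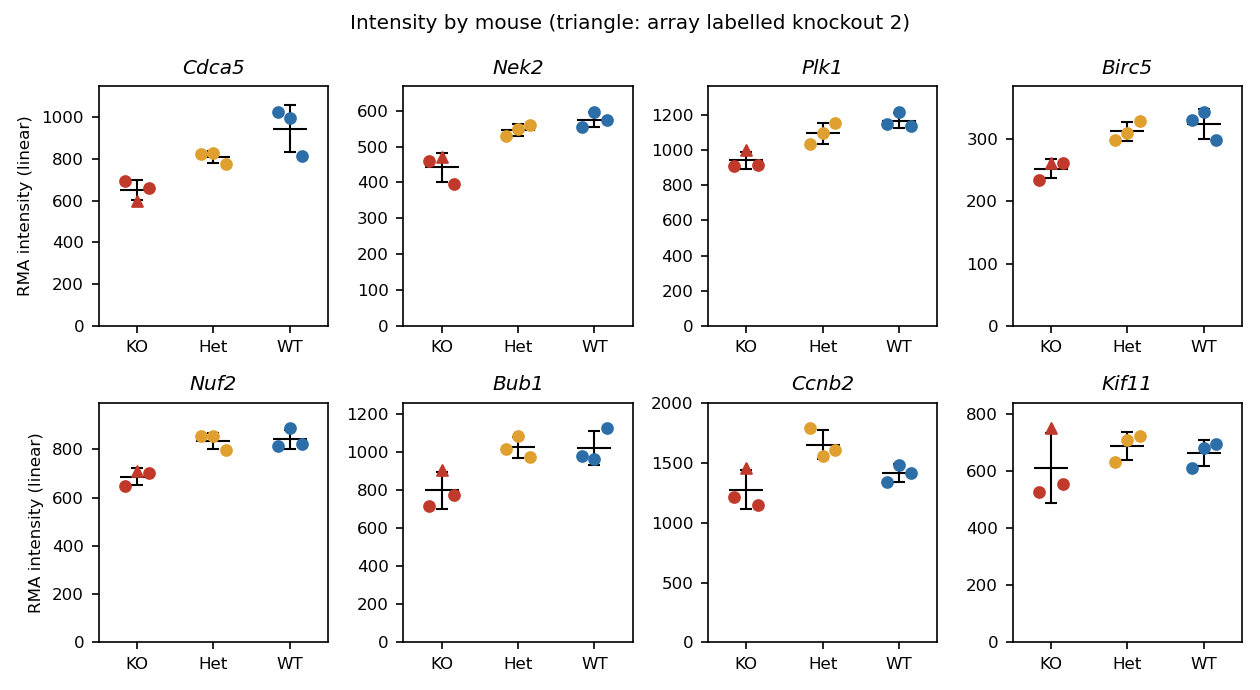
RMA intensity on a linear axis from 0 for 8 members, with 1 point per mouse and black bars for the mean and SD of each genotype (n = 3; KO labelled knockout, Het heterozygote, WT wild type); triangles mark knockout 2. For Cdca5, Nek2, Plk1, Birc5, Nuf2 and Bub1 the labelled knockouts lie below wild type without overlap, while knockout 2 lies within the wild-type range for Ccnb2 and above it for Kif11.

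The second comparison, heterozygote against wild type, asked whether 1 remaining copy of Taf4b comes with a difference. The members stood close to wild type, with a median log2 difference of -0.03, against 0.003 over all probe sets, and 25 of 36 lay below, against 48.7% of all. No member passed (0 of 36, limma), as was the case for 0% of all probe sets, and the smallest adjusted p was 0.815. At an unadjusted p under 0.05 there were 3 members, 1 higher and 2 lower, where 2.71% of all probe sets were higher, 3.04% lower and 5.75% either. Ccnb2 was the higher one, at 0.22 (SE 0.10, adjusted p = 0.815, limma), and it read 1217, 1460 and 1150 in the labelled knockouts, 1791, 1560 and 1610 in heterozygotes and 1341, 1486 and 1420 in wild type. All 3 heterozygotes lay above every other array. The lower ones were Cdca5 at -0.22 and Espl1 at -0.18 (SE 0.09 and 0.08, adjusted p = 0.815 for both, limma), both with overlap. Ttk came next by p, at -0.16 (SE 0.08, adjusted p = 0.815, limma). Heterozygotes lay entirely below wild type for Aurka alone and entirely above for Ccnb2 alone, against 6.43% and 4.13% of all probe sets. The number entirely below was 5 without heterozygote 2 or heterozygote 3, against 11.6% and 9.72% of all probe sets in those arrays. It was 6 without wild type 1 or wild type 3, against 9.63% and 12%. The number at an unadjusted p under 0.05 was 0 without knockout 1 or heterozygote 1, against 5.12% and 5.78% of all probe sets. It was 1 without knockout 3, heterozygote 3 or wild type 2, against 5.52%, 5.12% and 4.37%.

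Against heterozygotes, the arrays labelled knockout again lay lower. The median was -0.18, against -0.013 over all probe sets, and 35 of 36 members lay below, against 54.5% of all. No member passed with all arrays (limma, smallest adjusted p = 0.149 for Nuf2), against 0.0239% of all probe sets. An unadjusted p under 0.05 was reached by 16 members, all lower in the labelled knockouts, where 6.57% of all probe sets were lower, 7.71% higher and 14.3% either. The count was 9 without knockout 3, against 9.81% of all probe sets in either direction, and 10 without heterozygote 2 or heterozygote 3, against 13.9% and 13.1%. Labelled knockouts lay entirely below heterozygotes for 13 members and entirely above for 0, against 8.12% and 8.08% of all probe sets. They lay entirely below for 27 members without knockout 2, against 16.3%, and for 21 without heterozygote 1, against 12.8%. An unadjusted p under 0.05 was reached by 6 of 6 cyclins and entry kinases, at a median of -0.23, or by 5 of 6 at -0.32 without knockout 2. It was reached by 0 of 6 central spindle genes, at -0.08, or by 2 of 6 at -0.12 without knockout 2. The share of all probe sets at that threshold without knockout 2 is not given here, and the difference between these groups was not tested. Nek2 stood at -0.31 (SE 0.07, adjusted p = 0.164, limma), Birc5 at -0.31 (SE 0.07, adjusted p = 0.179) and Ccnb2 at -0.38 (SE 0.10, adjusted p = 0.180). Without knockout 2 the Ccnb2 difference was -0.48 and passed (adjusted p = 0.0465, limma), the single member called when 1 array was left out. In the same fit 5 of 20 granulosa cell markers and 5 of 14 macrophage markers passed. So did 1 of 114 further mitosis genes and 0 of 37 DNA replication genes. The share of all probe sets called in that fit is not given here, so the call is not read as particular to the members. This comparison and the first share the labelled knockout arrays, so they are not independent of each other. In the authors' deposited table of heterozygote over knockout, 10 members had p under 0.05, all with a ratio above 1, where 3.61% of all probe sets did so.

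Group means were ordered labelled knockout, heterozygote, wild type, lowest first, for 24 of the 36 members, against 16.8% of all probe sets. For another 10 the heterozygotes were highest and the labelled knockouts lowest, against 22.7%. Heterozygotes lay above the midpoint of the other genotypes for 30 members and below for 6, with a median of 0.07, where 47.6% of all probe sets lay below and their median was 0.006. The number below was 2 without heterozygote 1 or wild type 2 and 12 without heterozygote 2. Against the midpoint 0 members passed (limma, smallest adjusted p = 0.471), as did 0% of all probe sets. At an unadjusted p under 0.05 there were 3, all above it, where 4.85% of all probe sets were above, 5.13% below and 9.98% either. These were Ccnb2 and Cenpa at 0.30 each and Nuf2 at 0.14. This number was 11 without knockout 2, against 15% of all probe sets in that fit. Cenpa read 460, 576 and 449 in the labelled knockouts, 648, 620 and 669 in heterozygotes and 488, 622 and 570 in wild type, so its heterozygotes overlapped with wild type 2 alone.

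**Figure D3:**
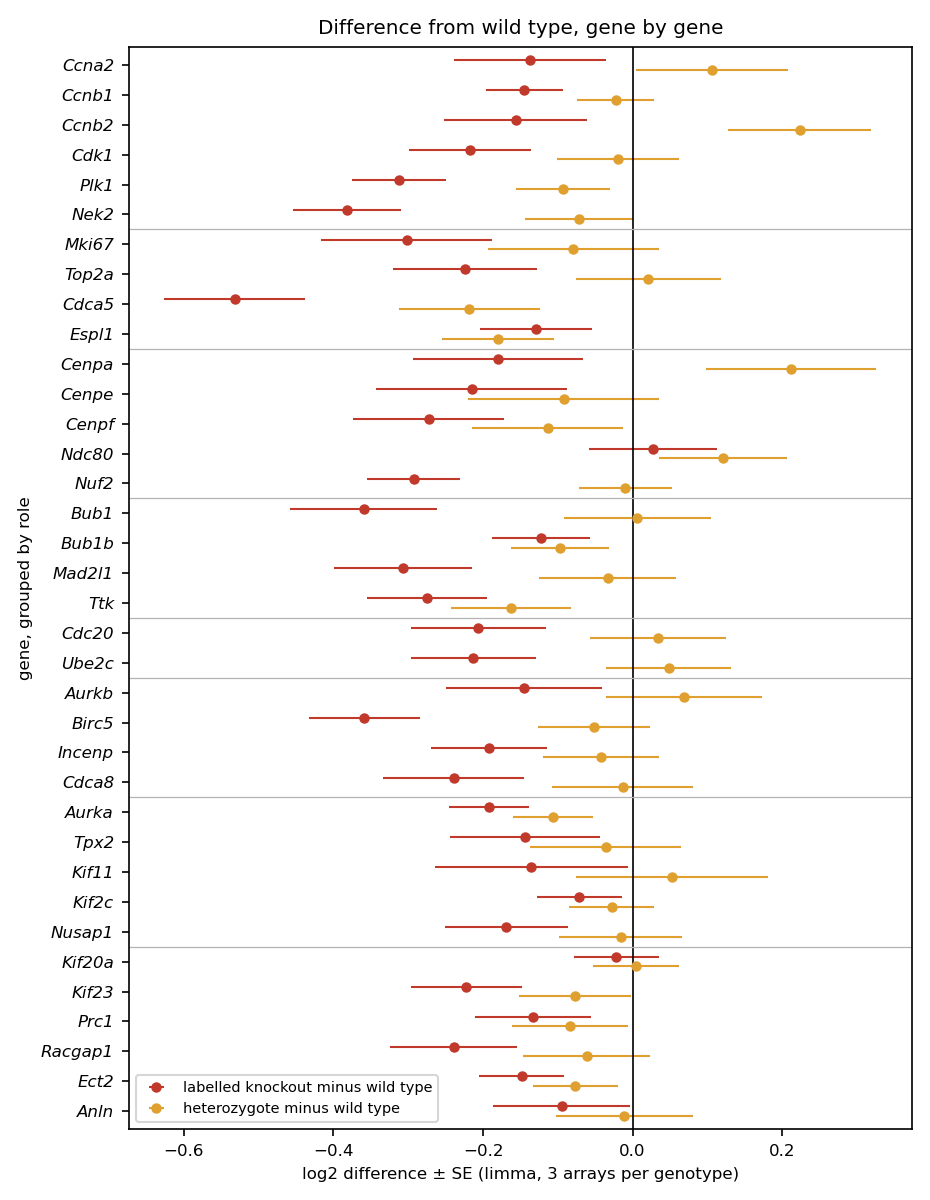
Log2 difference from wild type with its SE (limma, 3 arrays per genotype) for each of the 36 genes by role, red for labelled knockout and orange for heterozygote. The red points lie left of 0 for 35 genes, with Cdca5 at -0.53 the farthest, and the orange points scatter around 0 with a median of -0.03.

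Other genes of the same machinery were followed in lists that held none of the members. Of 114 such genes, 93 lay below wild type in the labelled knockouts, against 51.7% of all probe sets, with a median of -0.14, and none passed (limma). An unadjusted p under 0.05 was reached by 40 lower and 2 higher genes, where 5.77% of all probe sets were lower and 4.89% higher. The 33 other kinetochore and centromere genes were lower in 32 cases at a median of -0.21, close to the members. Among them Cenpm and Mis18a, which serve the loading or keeping of Cenpa at centromeres, stood at -0.27 and -0.24, and Ska3, of the complex that couples kinetochores to microtubules, at -0.37. Of 19 condensin and cohesin genes 15 lay below, at a median of -0.12, with the condensin genes Ncapg at -0.33, Smc2 at -0.24 and Ncaph at -0.25. The 22 other spindle motors and microtubule proteins had a median of -0.14 with 18 below, among them the chromosome motor gene Kif22 at -0.21, the spindle pole gene Aspm at -0.24 and the centriole kinase gene Plk4 at -0.24. The 25 regulators of mitotic entry and of the cell cycle program had a median of -0.17 with 21 below, led by the phosphatase gene Cdc25a at -0.32 (SE 0.06, adjusted p = 0.0958, limma). Ccnf, which encodes cyclin F, stood at -0.20 there, and Melk, a mitotic kinase gene, at -0.18. The 15 subunits and regulators of the anaphase-promoting complex had 7 below and 8 above at a median of 0.00 with all arrays, and 12 below and 3 above at -0.03 without knockout 2. In that list Ube2s, the enzyme that elongates ubiquitin chains, stood at -0.20 by the highest-mean of its 2 probe sets, and the other is not given here. The subunit gene Cdc26 stood at 0.12 and the subunit gene Anapc10 at -0.11. None of these named genes passed.

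Genes of DNA replication, which act in the preceding S phase, stood beside the mitosis genes. All 37 lay below wild type in the labelled knockouts, at a median of -0.26, against 51.7% of all probe sets, and none passed (limma). At an unadjusted p under 0.05 there were 24, all lower, against 5.77% of all probe sets. Without overlap there were 27, all lower, against 7.77%. Mcm5, a subunit of the replicative helicase, read 677, 766 and 773 in the labelled knockouts, 897, 896 and 891 in heterozygotes and 928, 944 and 975 in wild type, a difference of -0.36 (SE 0.06, adjusted p = 0.0906, limma). Mcm10, which activates that helicase, stood at -0.29 and Lig1, the ligase that joins Okazaki fragments, at -0.28, both without overlap. Knockout 2 did not stand with the other genotypes in this list: the mean deviation of the 37 genes from their 9-array mean was -0.21, -0.12 and -0.09 in the labelled knockouts, 0.12, 0.02 and -0.03 in heterozygotes and 0.07, 0.12 and 0.13 in wild type. The same measure over the 36 mitosis genes was -0.19, -0.01 and -0.19 in the labelled knockouts, 0.01, 0.09 and 0.05 in heterozygotes and 0.02, 0.14 and 0.08 in wild type. The labelled knockouts were the 3 lowest arrays by both lists, with knockout 2 nearest to the rest by the mitosis genes and between the other labelled knockouts by the replication genes.

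Markers of the cell types an ovary holds were set beside the mitosis genes, because several of them differed between the same arrays. With all arrays, 51.7% of all probe sets lay below wild type in the labelled knockouts, the share to set beside the marker counts that follow. The matching share without knockout 2 is not given here. The summed intensity of the 36 members lay between 28053 and 31730 in the labelled knockouts, 32681 and 33807 in heterozygotes and 32333 and 34931 in wild type. The summed intensity of 20 granulosa cell markers lay between 42842 and 53251 in the labelled knockouts, 51422 and 52235 in heterozygotes and 50299 and 52566 in wild type, with 13 of 20 below wild type in the labelled knockouts. Their mean deviation was -0.11, 0.14 and -0.26 in the labelled knockouts, 0.03, 0.04 and -0.01 in heterozygotes and 0.05, 0.00 and 0.13 in wild type, so that knockout 2 was the highest and knockouts 1 and 3 the lowest arrays. Fshr, the receptor for follicle-stimulating hormone on granulosa cells, lay between 237 and 487 in the labelled knockouts, 503 and 575 in heterozygotes and 497 and 675 in wild type. Foxl2, the granulosa cell identity factor, lay between 1434 and 1613 in the labelled knockouts, 1142 and 1561 in heterozygotes and 1326 and 1501 in wild type, with all genotypes overlapping.

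Several other marker lists ran the opposite way. All 14 macrophage markers were above wild type in the labelled knockouts, and their summed intensity lay between 2258 and 3137 in the labelled knockouts, 1720 and 1899 in heterozygotes and 1876 and 2064 in wild type. Markers of surface epithelium were above wild type for 10 of 12, with sums between 4600 and 5034 in the labelled knockouts, 3420 and 3486 in heterozygotes and 3167 and 3918 in wild type. In both lists the labelled knockouts did not overlap with the other genotypes. The 10 endothelial markers were also above wild type without exception, with sums between 4528 and 4914 in the labelled knockouts, 3770 and 4073 in heterozygotes and 4080 and 4435 in wild type. Fibroblast markers were above for 8 of 9, with sums between 25049 and 28048 in the labelled knockouts, 20601 and 22240 in heterozygotes and 22516 and 24661 in wild type. These sums likewise stood highest in the labelled knockouts.

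Theca and oocyte markers separated the labelled knockouts from each other. Theca markers were above wild type for 8 of 9, with sums between 7455 and 13787 in the labelled knockouts, 6436 and 10609 in heterozygotes and 6503 and 7192 in wild type, and knockout 2 was the highest array, at a mean deviation of 0.75. Oocyte markers were below for 15 of 22, with sums between 29385 and 46749 in the labelled knockouts, 28489 and 34027 in heterozygotes and 34768 and 45944 in wild type. Knockout 2 had the lowest mean deviation of the 9 arrays by oocyte markers, -0.38, where knockouts 1 and 3 stood at 0.17 and 0.29, and without it 8 of the 22 were below. Of the remaining lists, lymphocyte markers were below for 6 of 10, with sums between 483 and 598 in the labelled knockouts, 487 and 552 in heterozygotes and 543 and 577 in wild type. Adipocyte markers were above for 7 of 8 and oviduct markers for 6 of 7, while erythroid markers had a median of 0.01, or -0.06 without knockout 2. The part of these cell types in the lower mitosis signals was not tested.

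**Figure D4:**
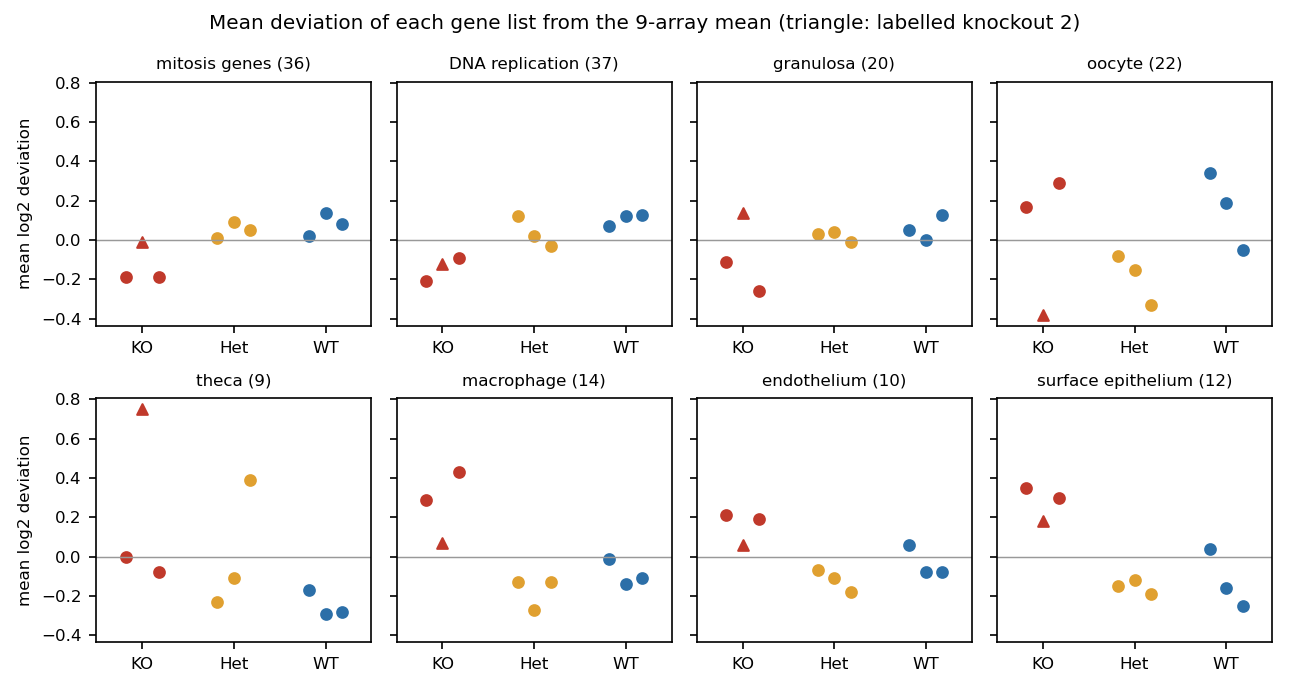
Mean log2 deviation of each gene list from its 9-array mean, with 1 point per array (KO labelled knockout, Het heterozygote, WT wild type; triangles are knockout 2; list sizes in parentheses). Mitosis and DNA replication genes are lowest in KO, macrophage and surface epithelium markers are highest there, and granulosa, oocyte and theca markers separate KO 2 from KO 1 and KO 3.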

How the data were processed

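Total RNA of 9 ovarian samples, 1 mouse per array, was extracted with Trizol per the labels' protocols. Per the series' design text, 300 ng were labelled and hybridized, and the authors derived the intensity values with RMA-Sketch in Expression Console 1.1. The deposited intensities are linear, and log2 values were computed from these deposited intensities here. The authors also deposited comparison tables with a ratio of the group means for each pair of genotypes and a p-value per probe set, per the file headers; how these p-values were computed and the annotation release are not given in the sources used here. No value column was left unmapped (0).

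Symbols were updated through the RefSeq table of GRCm38.p6 by accession (18712 probe sets), symbol (2208) or synonym (1751); 2278 kept the file's symbol. The highest-mean probe set stood for a gene. Genotypes, grouped by the labels, were compared with limma 3.58.1 in R 4.3.3 over all 9 arrays, two-sided, with Benjamini-Hochberg adjustment over 25100 probe sets and calls at an adjusted p of 0.05. Called and unadjusted counts use that fit, and the shares of all probe sets come from it too. Lists are described by counts and medians alone. On simulated data for labelled knockout against wild type (25100 probe sets, 200 changed, 5 simulations), 18.5% of 1.25-fold, 70.1% of 1.5-fold and 91.5% of 2-fold changes were recovered, with 6.01% false among the calls. The simulated noise was independent between probe sets and had the same SD in all genotypes. The members spread more among the labelled knockouts (median SD 0.147, against 0.075 in wild type), so these rates may not hold for them. Replicate numbers were not used to pair the mice in the main fit. Same-numbered arrays had correlations of deviations between -0.193 and 0.334. Differently numbered arrays were not set beside them, so these values cannot show whether same-numbered arrays share a pairing or batch.

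Values in every array were to be given for the 12 members with the smallest p for labelled knockout against wild type, the 4 with the smallest p in each other pair, and the 2 with the highest and the 2 with the lowest mean; others were chosen after their values were seen. From each further list the 3 genes with the smallest p are named. Members and lists were chosen with earlier results of these data known. Alternatives left out arrays, used only the 6 arrays compared, a replicate block, quantile normalization, a filter on the lowest 25% of probe sets, all probe sets, trended robust moderation, an equal-variance test on linear intensities, and the mean over a gene's probe sets.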

Additional observations from a re-analysis of the deposited data

How the results depend on the processing

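For labelled knockout against wild type, 0 members were called under each of the 18 alternatives, with smallest adjusted p between 0.0713 (trended robust moderation) and 0.54 (equal-variance test on linear intensities), and the 12 members named first kept a negative difference in each of them. For heterozygote against wild type 0 were called, with smallest adjusted p between 0.531 and 0.975. For labelled knockout against heterozygote the number called lay between 0 and 1 with 1 array left out, the 1 being Ccnb2 without knockout 2. It was 2 without knockout 2 and heterozygote 1 together (Ccnb2 and Ube2c, adjusted p = 0.0478 each, limma), where the median was -0.27 against -0.18 with all arrays. The median with 1 array left out lay between -0.26 and -0.15. Members below the midpoint numbered 6 with all arrays, between 2 and 12 with 1 array left out, 2 without knockout 2 and heterozygote 1 together, and 3 after quantile normalization. With the replicate number as a block, the median for labelled knockout against wild type was -0.20, 35 members lay below and 0 were called. An unadjusted p under 0.05 was reached by 23 members, against 11% of all probe sets in that fit in either direction. The block called no member in any comparison. Members at an unadjusted p under 0.05 for labelled knockout against heterozygote numbered 10 by the equal-variance test, against 16 in limma. For heterozygote against wild type, 1 member reached it with only the 6 arrays compared, with the block, after quantile normalization, by the equal-variance test, and without knockout 2 and heterozygote 1 together, against 3; the cause was not tested. Against the midpoint, 6 reached it after quantile normalization and 10 without knockout 2 and heterozygote 1 together, against 3. The counts in this paragraph for comparisons other than labelled knockout against wild type lack the share of all probe sets in the same fit. That share also moves: for labelled knockout against wild type it was 10.7% in the main fit and 15.1% without knockout 2 and heterozygote 1 together. By the equal-variance test it was 7.25%, so these counts are not read as changes in the members alone.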

Other observations

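Without knockout 2 the lists set beside the members stood as follows against wild type, with no explanation offered. The 114 further mitosis genes had 100 below and 14 above, at a median of -0.18, the 37 replication genes 37 below at -0.28, and the 20 granulosa cell markers 14 below at -0.24. Oocyte markers had 8 below and 14 above, at 0.03, against 15 below and 7 above at -0.18 with all arrays. In heterozygotes all 22 oocyte markers lay below wild type, against 48.7% of all probe sets. Their median was -0.35, while the 36 mitosis genes stood at -0.03.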
